A study of Mus musculus with 8 samples.

Results

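The genes described here are the Wnt ligands, their receptors and co-receptors, the R-spondins with their Lgr receptors, the secreted Wnt antagonists, and 4 intracellular genes that report on or act in the pathway (Axin2, Lef1, Nkd1 and Nkd2). They were picked by symbol without a cut on any measured value, though with earlier results of these data known. In all, 55 of the 24675 named genes in the table met the rule: 19 Wnt genes, 10 frizzled genes, 5 co-receptors (Lrp5, Lrp6, Ror1, Ror2 and Ryk), 7 R-spondin and Lgr genes, 10 antagonists and the 4 intracellular genes. The study set tissue on the dorsal side of the aorta against tissue on its ventral side, in C57Bl/6 mouse embryos at embryonic day 12.5, late in the period in which the aorta-gonad-mesonephros region produces blood stem cells. Dorsal samples came from the space between notochord and aortic roof and ventral samples from beneath the aorta. Both were cut by laser from frozen sections of the same embryos, with 4 Affymetrix mouse Gene 2.0 ST arrays per tissue, labelled as biological replicates 1 to 4. The labels name no mutation, transgene or treatment, and do not say whether 1 array holds 1 embryo or several. Values are log2 RMA values, and every difference is ventral minus dorsal on that scale.

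Wnt proteins are secreted lipid-modified ligands that bind frizzled receptors. With the co-receptors Lrp5 or Lrp6 they stabilise beta-catenin, which enters the nucleus and activates target genes through factors such as Lef1. With Ror1, Ror2 or Ryk they can signal without beta-catenin and orient cell shape and movement. R-spondins, held by Lgr receptors, keep frizzled and Lrp proteins on the cell surface and so raise the response. Sfrp proteins, Frzb and Wif1 bind the ligands, while Dkk1, Dkk2 and Dkk4 bind Lrp5 and Lrp6. In the embryo the pathway patterns the somites, the neural tube and the mesoderm around the gut and kidney.

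The tissue labels were checked against marker genes. The mean level of 11 sclerotome and cartilage markers, genes of the somite derivative that forms vertebrae, was 5.48 to 6.53 on the dorsal and 4.43 to 4.64 on the ventral arrays. The mean of 7 smooth muscle markers was 4.74 to 5.33 on dorsal and 5.20 to 6.65 on ventral arrays. Markers of other cell types were high on some arrays: 10 neural tube markers averaged 4.47 on dorsal array 1 against 3.57 to 3.66 on the other dorsal arrays, 6 liver markers reached 7.74 on dorsal array 4 and 6.25 on ventral array 4 against 3.43 to 3.6 elsewhere, and 7 sympathoadrenal markers reached 7.36 on ventral array 1 and 6.32 on ventral array 3 against 4.42 to 5.49 elsewhere. On dorsal array 1, 4 Schwann precursor markers averaged 5.99 (3.92 to 4.40 on the other dorsal arrays, 3.95 to 5.28 on ventral arrays). Of these, Sox10 was not raised there, at 4.12 against 3.83 to 4.15 on the other dorsal arrays. The mean of 8 nephric markers on dorsal array 1 was 4.74 (3.91 to 4.15 on the other dorsal arrays, 4.05 to 4.52 on ventral arrays). Of the neural tube markers, Sox1, Pax6 and Olig2 lay under the array median on every array. Within a tissue the arrays correlated across tested genes at r = 0.907 to 0.957, and between the tissues at r = 0.907 to 0.936. In such bulk tissue fewer cells of a type and less RNA per cell cannot be told apart.

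No gene of the pathway passed the test between the tissues. Of the 55 genes, 37 lay above the median of the array (3.59 to 3.65) on at least 4 of the 8 arrays and were tested, and 18 were not. limma, fitted over all 12416 tested genes with the replicate number as a block, called 0 of the 37 at an adjusted p under 0.05 and 0 genes in all, a background of 0.0%. At an unadjusted p under 0.05 there were 7 of the 37 (18.9%), beside 8.26% of all tested genes. Of these 7, Sfrp1, Sfrp4 and Ror1 were higher in ventral tissue (all tested genes: 4.08%) and Fzd9, Fzd8, Lrp6 and Dkk2 were lower (4.18%). Sfrp4 passed the filter mainly through the ventral arrays, where it was higher, so its place among the 7 rests partly on that tissue. A share over tested members is a description and was not tested. Fzd9 was the 1 member whose dorsal and ventral arrays did not overlap, where 4.39% of all tested genes did not overlap and 2.38% did so with the lower values in ventral tissue. The ventral array was the higher one in 4 of 4 numbers for 4 members (7.93% of all tested genes) and the lower one for 4 (8.46%). Without the block limma again called 0 members, beside 0.0322% of all tested genes. At an unadjusted p under 0.05 there were then fewer of the 37, 2 higher and 2 lower in ventral tissue. Of all tested genes 7.99% reached that level without the block, in either direction. The median difference was -0.06 over the 37 and 0.00 over all tested genes, and 17 of the 37 had the higher mean in ventral tissue (45.9%, beside 49.2% of all tested genes).

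**Figure D1:**
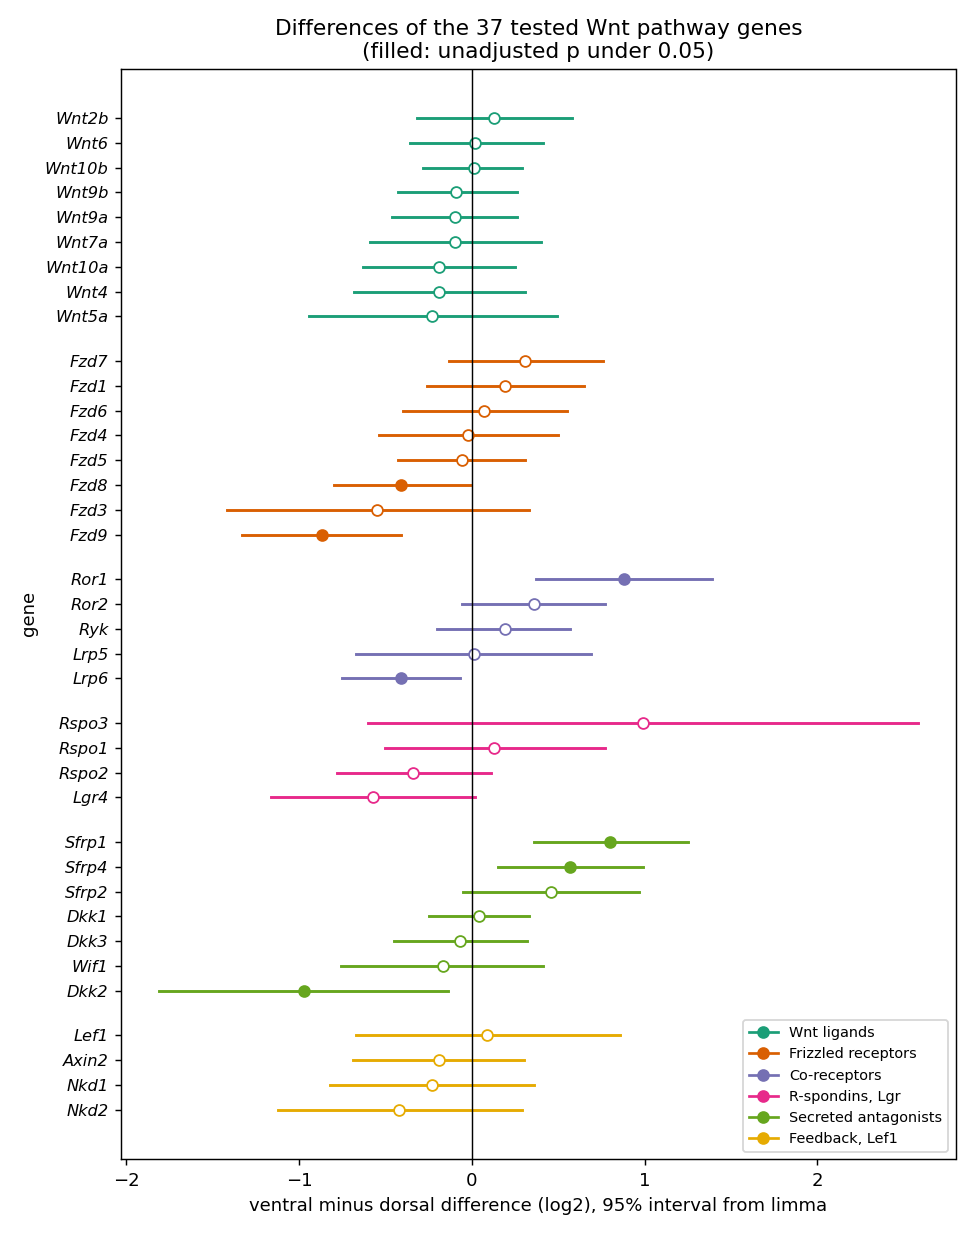
Ventral minus dorsal difference (x axis, log2) of the 37 tested genes (y axis), coloured by class; lines are 95% intervals from limma and filled points have an unadjusted p under 0.05. Of the 7 filled points, Ror1, Sfrp1 and Sfrp4 lie to the right of 0 and Fzd9, Fzd8, Lrp6 and Dkk2 to the left, and no adjusted p passed 0.05.

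To show what surrounds the start of these genes, promoter windows are given for Fzd9, Dkk2 and Ror1, members at an unadjusted p under 0.05 with an entry in the RefSeq promoter table (build GRCm38.p6), and for Axin2, the feedback target most used as a readout of beta-catenin signalling. Each runs 5′ to 3′ from 250 bases before to 50 bases after the start. Capitals mark the core letters bound by TCF and LEF factors, searched as CTTTGA or CTTTGT on both strands. The Fzd9 window is chr5:135250998-135251297 (minus strand), that of Dkk2 chr3:132085042-132085341, that of Ror1 chr4:100095541-100095840 and that of Axin2 chr11:108920099-108920398 (all plus strand).
Fzd9: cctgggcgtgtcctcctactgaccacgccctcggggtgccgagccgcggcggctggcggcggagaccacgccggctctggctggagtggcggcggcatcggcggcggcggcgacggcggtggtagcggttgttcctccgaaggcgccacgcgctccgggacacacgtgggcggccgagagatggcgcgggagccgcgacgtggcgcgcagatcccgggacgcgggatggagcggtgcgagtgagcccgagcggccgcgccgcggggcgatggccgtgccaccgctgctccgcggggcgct
Dkk2: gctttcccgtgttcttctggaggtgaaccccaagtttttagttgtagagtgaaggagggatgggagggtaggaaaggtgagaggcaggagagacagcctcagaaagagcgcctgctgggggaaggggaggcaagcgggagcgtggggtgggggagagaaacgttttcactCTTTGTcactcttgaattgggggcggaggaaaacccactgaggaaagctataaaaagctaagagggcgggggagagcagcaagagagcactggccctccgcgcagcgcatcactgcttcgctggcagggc
Ror1: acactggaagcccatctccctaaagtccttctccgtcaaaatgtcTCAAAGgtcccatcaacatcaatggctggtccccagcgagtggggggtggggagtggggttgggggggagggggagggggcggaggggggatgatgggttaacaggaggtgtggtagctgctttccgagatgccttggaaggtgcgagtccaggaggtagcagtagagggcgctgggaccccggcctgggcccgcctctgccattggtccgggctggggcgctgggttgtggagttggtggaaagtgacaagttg
Axin2: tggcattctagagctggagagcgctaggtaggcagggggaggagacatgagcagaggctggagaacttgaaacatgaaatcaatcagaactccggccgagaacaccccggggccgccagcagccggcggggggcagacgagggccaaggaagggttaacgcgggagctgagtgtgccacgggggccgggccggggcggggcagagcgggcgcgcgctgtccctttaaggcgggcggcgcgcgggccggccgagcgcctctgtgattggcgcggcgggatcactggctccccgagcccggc

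The Dkk2 window held the TCF/LEF letters once, at bases 171 to 176, and so did the Ror1 window, at bases 46 to 51. In the windows of Fzd9 and Axin2 these letters did not occur. Such matches are common and are a description, not a site: 31.2% of all 32851 windows in the table held them, and 12 of the 44 windows of the 38 matched members (27.3%). The GC box GGGCGG (either strand, able to overlap the TCF/LEF letters by at most 1 base) was in 32 of the 44 member windows (72.7%) and in 35.7% of all windows. It was present in all 4 windows printed here, whose GC content was 78.0% for Fzd9, 57.7% for Dkk2, 62.3% for Ror1 and 70.0% for Axin2.

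Among the ligands no difference stood out. Of the 19 Wnt genes, 9 were tested (Wnt2b, Wnt4, Wnt5a, Wnt6, Wnt7a, Wnt9a, Wnt9b, Wnt10a and Wnt10b), 0 of them at an unadjusted p under 0.05. Their differences ran from -0.23 (Wnt5a) to 0.13 (Wnt2b). The median over all 19 was -0.09, with an SD of 0.13 over the replicate numbers, beside 0.00 over all genes in the table. The other 10 lay under the array median on most arrays, a range where background hides differences. They include Wnt1 and Wnt3a, ligands of the dorsal neural tube, with means of 2.98 and 2.85 in dorsal and 2.99 and 2.83 in ventral tissue. On dorsal array 1, where neural tube markers were high, Wnt1 stood at 3.09 and Wnt3a at 2.84, both under the array median.

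Wnt4 and Wnt10a exceeded the array median on all 8 arrays. Wnt4, a ligand needed in kidney, gonad and adrenal development, read 4.67, 4.80, 4.6 and 4.71 on dorsal arrays 1 to 4 and 4.19, 4.33, 5.04 and 4.46 on ventral arrays 1 to 4. Ventral array 3 was above every dorsal array and the other ventral arrays were below them, and the difference was -0.19 (95% interval -0.68 to 0.31, adjusted p = 0.881 by limma). Wnt10a differed by -0.19 as well (interval -0.63 to 0.25).

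Wnt5a, the main ligand of the branch without beta-catenin in mesenchyme, varied more within tissues than between them. Its values were 5.06, 4.83, 4.53 and 3.89 on dorsal and 6.00, 3.90, 4.12 and 3.38 on ventral arrays. Ventral array 1 was the highest of all 8 and ventral array 4 the lowest. The difference was -0.23 (interval -0.94 to 0.49, adjusted p = 0.900 by limma), and it was -0.61 without replicate number 1 and 0.01 without number 2. Its spread within tissues (dorsal SD 0.51, ventral SD 1.14, n = 4 each) ranked 300 among the 12416 tested genes.

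Frizzled receptors held the member with the lowest p. Fzd9 read 5.29, 5.76, 5.86 and 5.54 on dorsal and 3.97, 5.13, 5.03 and 4.85 on ventral arrays. Every ventral value was below every dorsal one, with ventral array 1 the lowest. The dorsal mean was 5.62 ± 0.25 and the ventral mean 4.75 ± 0.53 (SD, n = 4), a difference of -0.87 (SE 0.19, a 1.83-fold lower ventral level), in 4 of 4 replicate numbers. By limma the unadjusted p was 0.00272, rank 127 of 12416 genes, and the adjusted p was 0.266. The difference lay between -1.0 and -0.61 under 20 other settings, its unadjusted p was under 0.05 in all 20, and its adjusted p ran from 0.213 to 0.719. The sclerotome markers, which were also higher on every dorsal array, averaged 5.48, 6.53, 6.25 and 5.75 on dorsal arrays 1 to 4, and their part in this difference was not tested.

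Fzd8 differed in the same direction by less. It read 4.14, 4.74, 4.96 and 4.05 on dorsal and 3.5, 4.30, 4.46 and 4.00 on ventral arrays. The groups overlapped, and each ventral array was below the dorsal array of its number, with a difference of only -0.05 in number 4. The difference was -0.41 (SE 0.17; limma unadjusted p = 0.0442, adjusted p = 0.591), and without the block its unadjusted p was 0.161.

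The other tested frizzled genes did not separate the tissues. Fzd3, which acts in axon guidance and planar polarity, stood at 7.77 on dorsal array 1 and between 5.54 and 6.39 on the other dorsal arrays, against 5.16 to 6.15 on ventral arrays. Dorsal array 1 also had the highest means of the neural tube, Schwann precursor and nephric markers, and their part in this value was not tested. Fzd3 differed by -0.55 (interval -1.42 to 0.33), and by -0.84 to -0.08 with 1 array or number left out. Fzd7 read 4.39 to 4.57 on dorsal arrays and 4.36, 4.97, 5.09 and 4.80 on ventral arrays, so that ventral array 1 was below every dorsal array and the other 3 ventral arrays were above them. Its difference was 0.31 (interval -0.13 to 0.76). Fzd1, Fzd4, Fzd5 and Fzd6 differed by 0.19, -0.02, -0.06 and 0.07. Fzd2 and Fzd10 were not tested.

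Of the co-receptors, Ror1 was higher in ventral tissue and Lrp6 lower. Ror1, a receptor tyrosine kinase for Wnt5a, read 3.95, 4.36, 4.88 and 4.90 on dorsal and 4.25, 5.31, 6.25 and 5.80 on ventral arrays. Ventral arrays 2 to 4 were above all dorsal ones and ventral array 1 lay inside their range. The means were 4.52 ± 0.46 and 5.40 ± 0.86 (SD, n = 4), a difference of 0.88 (SE 0.22, 1.84-fold), higher in 4 of 4 replicate numbers by 0.30, 0.94, 1.37 and 0.90. limma gave an unadjusted p of 0.00457 and an adjusted p of 0.311, and without the block the unadjusted p was 0.0552.

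Its relative Ror2 had the same sign in 4 of 4 numbers by less, with dorsal values of 5.03, 5.47, 5.10 and 5.31 and ventral values of 5.18, 5.82, 5.67 and 5.66. Again 3 ventral arrays lay above all dorsal ones and ventral array 1 did not. The difference was 0.36 (interval -0.06 to 0.77, adjusted p = 0.668 by limma). Ryk, a further Wnt receptor of the kinase type, differed by 0.19 (interval -0.20 to 0.57).

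Lrp6, the co-receptor of the beta-catenin branch, read 7.99, 8.24, 7.84 and 7.63 on dorsal and 7.80, 7.77, 7.44 and 7.06 on ventral arrays. The groups overlapped, but in 4 of 4 numbers the ventral array was the lower one. The difference was -0.41 (SE 0.14; limma unadjusted p = 0.0256, adjusted p = 0.519), and without the block the unadjusted p was 0.0738. Lrp5, the other Lrp co-receptor, depended on number 1: its means were 5.82 ± 0.39 (dorsal) and 5.83 ± 0.35 (ventral; SD, n = 4), and the difference of 0.01 had an interval of -0.67 to 0.69. Its differences by number were 1.08, -0.53, -0.44 and -0.07, and without number 1 the difference was -0.35.

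The widest positive gap of the family was that of Rspo3, an R-spondin of vascular and mesenchymal tissue, and it depended on 1 replicate number. Rspo3 read 6.46, 5.60, 6.16 and 5.14 on dorsal and 4.46, 7.72, 8.02 and 7.11 on ventral arrays. Ventral arrays 2, 3 and 4 were above every dorsal array, while ventral array 1 was the lowest of all 8. The differences by number were -2.01, 2.12, 1.86 and 1.98. Over the 4 numbers the difference was 0.99 (SE 0.67, interval -0.60 to 2.58, adjusted p = 0.776 by limma). Its spread within tissues (SD 0.59 in dorsal, 1.62 in ventral, n = 4) ranked 100 among the 12416 tested genes.

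Without replicate number 1 the Rspo3 difference was 1.99 (SE 0.20) over 3 numbers, and it was the 1 member that limma then called (adjusted p = 0.0465, with 9 genes called in all, 0.0725% of those tested). Without the block and without ventral array 1 alone, limma gave 1.78 and an adjusted p of 0.124. With each other number left out in turn it was 0.61, 0.70 and 0.66. Ventral array 1 differed in markers too: its 9 visceral mesenchyme markers averaged 4.71 (5.26 to 6.01 on the other ventral arrays, 4.34 to 4.85 on dorsal arrays), its 7 smooth muscle markers 5.20 (5.82 to 6.65) and its 7 sympathoadrenal markers 7.36 (4.42 to 6.32). Their part in the Rspo3 value was not tested.

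**Figure D2:**
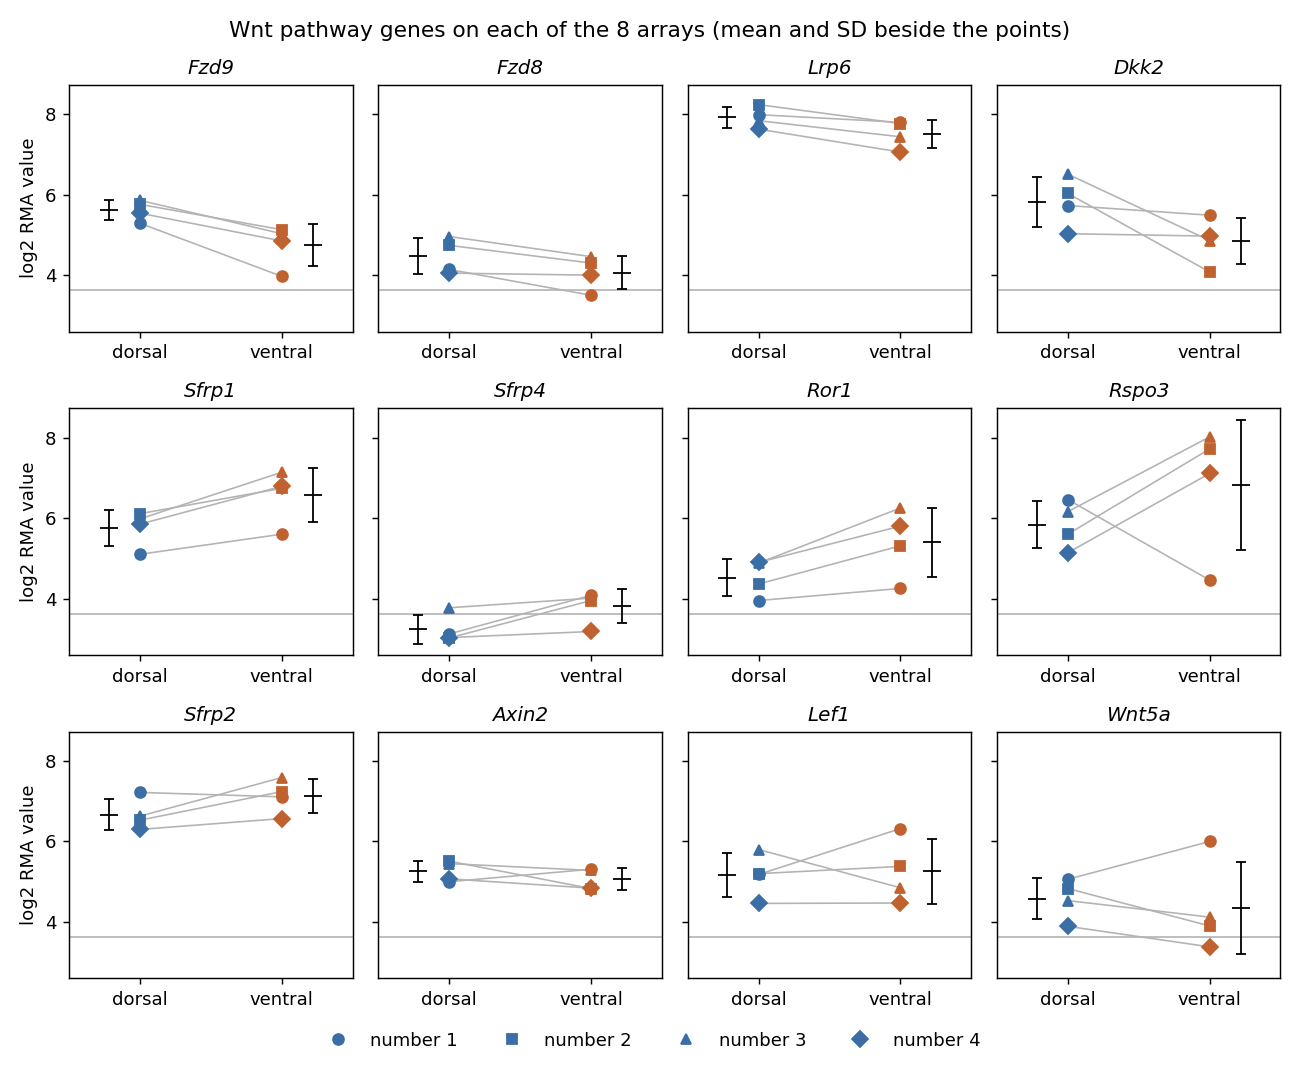
log2 RMA value (y axis) of 12 genes on the dorsal and ventral arrays; lines join arrays of 1 replicate number, bars show mean and SD (n = 4), and the grey band marks the array medians of 3.59 to 3.65. Fzd9 is lower on the right with no overlap, and in the Rspo3 panel number 1 runs from 6.46 down to 4.46 while the other numbers run up.

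The other R-spondins and Lgr receptors did not follow Rspo3. Rspo1, which acts in gonad development, differed by 0.13 (interval -0.50 to 0.77) and Rspo2, of limb and lung, by -0.34 (interval -0.78 to 0.11). Lgr4, the R-spondin receptor with the widest distribution, read 7.02, 6.11, 6.55 and 6.09 on dorsal and 5.93, 5.12, 6.17 and 6.27 on ventral arrays. Dorsal array 1 was highest and ventral array 2 lowest, and the difference was -0.57 (interval -1.16 to 0.02, adjusted p = 0.611 by limma). Lgr5, a stem cell marker of adult epithelia, lay under the array median on all 8 arrays, at 3.19, 2.98, 3.00 and 3.07 on dorsal and 3.13, 3.15, 3.16 and 3.07 on ventral arrays, and Rspo4 and Lgr6 were not tested either.

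Secreted antagonists went both ways. Sfrp1, which binds Wnt ligands outside the cell, read 5.10, 6.11, 5.98 and 5.85 on dorsal and 5.60, 6.74, 7.14 and 6.79 on ventral arrays. Ventral arrays 2 to 4 were above every dorsal array, ventral array 1 was not, and within each number the ventral array was higher. The means were 5.76 ± 0.45 and 6.57 ± 0.67 (SD, n = 4), a difference of 0.80 (SE 0.19, 1.75-fold; limma unadjusted p = 0.00345, adjusted p = 0.287). It was positive under all 20 other settings (0.59 to 1.13) and at an unadjusted p under 0.05 in 15 of them.

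Sfrp4 read 3.12, 3.02, 3.77 and 3.03 on dorsal and 4.08, 3.95, 4.01 and 3.18 on ventral arrays. It exceeded the array median on 4 arrays, 3 of them ventral, so it entered the test mainly through the tissue where it was higher, and its difference of 0.57 (SE 0.18; limma unadjusted p = 0.0150, adjusted p = 0.445) is bounded by background on the dorsal side. Sfrp2 read 7.22, 6.53, 6.63 and 6.30 on dorsal and 7.11, 7.24, 7.59 and 6.57 on ventral arrays, with differences of 0.26 to 0.96 in numbers 2 to 4 and of -0.11 in number 1. Its difference was 0.46 (interval -0.05 to 0.97, adjusted p = 0.647 by limma).

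Frzb, a cartilage-associated member of the Sfrp family, was not tested, as it exceeded the array median on 3 arrays. It read 4.27, 3.39, 3.56 and 2.50 on dorsal and 3.33, 5.37, 4.55 and 2.93 on ventral arrays, and the groups overlapped. The means of 3.43 ± 0.73 and 4.04 ± 1.12 (SD, n = 4) differed by less than the ventral spread.

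Dkk2, a Dkk protein that binds Lrp5 and Lrp6, was the 1 antagonist at an unadjusted p under 0.05 with the lower ventral level. It read 5.73, 6.03, 6.51 and 5.03 on dorsal and 5.49, 4.08, 4.86 and 4.97 on ventral arrays. The difference was -1.95 in number 2 and -1.65 in number 3, and only -0.24 and -0.06 in numbers 1 and 4. The difference was -0.97 (SE 0.35, 1.97-fold lower; limma unadjusted p = 0.0278, adjusted p = 0.526), and -0.65 without number 2, where the unadjusted p was 0.119. Dorsal arrays 2 and 3 were also those with the highest sclerotome marker means (6.53 and 6.25), and the part of these markers was not tested. Dkk1, Dkk3 and Wif1 differed by 0.04, -0.07 and -0.17, with intervals that include 0.

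None of the 4 intracellular genes separated the tissues or reached an unadjusted p under 0.05. Axin2, a direct target that feeds back on the pathway, read 5.0, 5.51, 5.45 and 5.07 on dorsal and 5.31, 4.83, 5.28 and 4.84 on ventral arrays, with broad overlap. The means of 5.26 ± 0.26 and 5.06 ± 0.27 (SD, n = 4) differed by -0.19, with an interval of -0.69 to 0.30 (adjusted p = 0.873 by limma). The Axin2 difference was -0.36 without number 1 and -0.03 without number 2.

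Lef1, a nuclear partner of beta-catenin, read 5.18, 5.20, 5.80 and 4.46 on dorsal and 6.32, 5.38, 4.85 and 4.47 on ventral arrays. As with Wnt5a, ventral array 1 was the highest of all 8, and the low values of number 4 were equal in both tissues to 0.01. Its difference was 0.09 (interval -0.67 to 0.86) and changed sign, to -0.26, without number 1. Nkd1 and Nkd2, feedback inhibitors that act on Dishevelled, differed by -0.23 (interval -0.82 to 0.36) and -0.42 (interval -1.12 to 0.29). Nkd2 was high on ventral array 1 as well, at 4.6 against 3.10 to 3.87 on the other ventral arrays.

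Ventral array 1 had the largest share of the members' lowest values, and ventral array 3 the largest share of their highest values. On ventral array 1, 10 of the 37 tested members had their lowest value of the 8 arrays (27.0%, beside 15.0% of all tested genes), among them Rspo3, Fzd9 and Fzd8, and 5 had their highest (13.5%, beside 11.6%), among them Wnt5a and Lef1. On ventral array 3, 8 had their highest value (21.6%, beside 11.2%), among them Rspo3, Ror1, Sfrp1 and Sfrp2, and 3 their lowest (8.11%, beside 8.64%). Dorsal array 1 held 6 highest (16.2%, beside 12.9%) and 6 lowest (16.2%, beside 13.8%). These shares were not tested. Without number 1 the Wnt5a difference was -0.61 (unadjusted p = 0.0172) and that of Nkd2 -0.78 (unadjusted p = 0.0125), with adjusted p = 0.433 and 0.389 by limma. Ror1, Sfrp1 and Sfrp2 then differed by 1.07, 0.91 and 0.65, and Fzd9 by -0.72, none of them called. In the left-out number 1, Wnt5a and Nkd2 had gone the other way (0.94 and 0.66). Nkd2 exceeded the array median on only 5 of the 8 arrays, so its difference lies close to background.

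**Figure D3:**
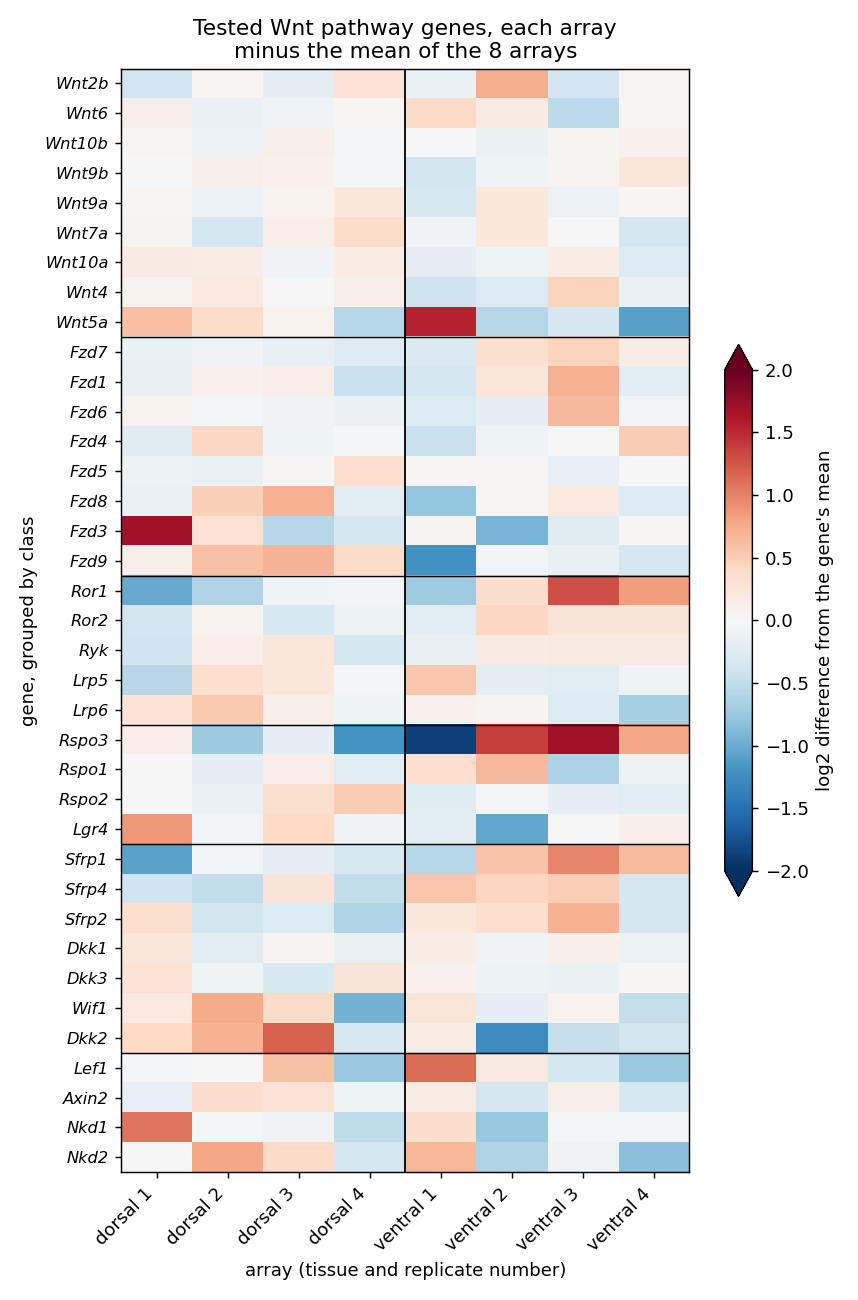
Value of each of the 37 tested genes (rows, grouped by class) on each array (columns) minus the gene's mean over the 8 arrays, in log2 units; red is above and blue below that mean. Ventral 1 is the deepest blue cell for Rspo3, where the other ventral arrays are red, and dorsal 1 is red for Fzd3 (7.77) and Nkd1 (5.74).

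**Figure D4:**
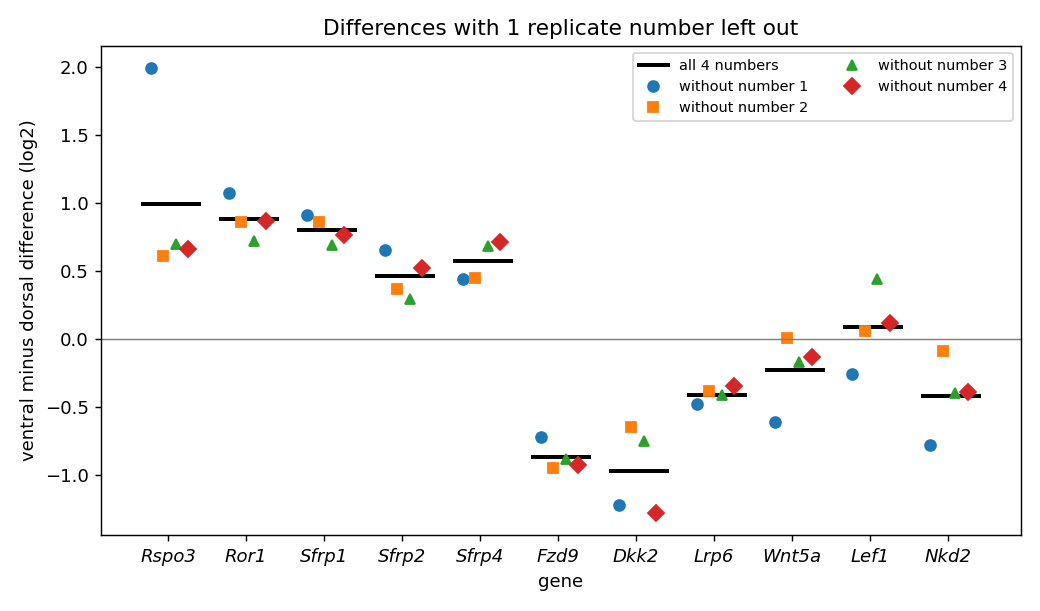
Ventral minus dorsal difference (y axis, log2) of 11 genes with all 4 replicate numbers (black bar) and with 1 number left out (symbols). Rspo3 moves from 0.99 to 1.99 without number 1, and Lef1 and Wnt5a cross 0, while Fzd9, Dkk2, Lrp6, Ror1, Sfrp1, Sfrp2, Sfrp4 and Nkd2 stay on 1 side.

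Other genes of the pathway, from lists of textbook components, gave a similar picture. Of 75 such genes, 72 are in the table and 54 were tested; limma called 0, and 8 had an unadjusted p under 0.05, 3 higher and 5 lower in ventral tissue (14.8%, beside 8.26% of all tested genes). The median difference was 0.01. Among 10 tested nuclear factors, 2 were lower at that level, beside 4.18% of all tested genes. Both had no overlap between the tissues. Of all tested genes 2.38% did so with the lower values in ventral tissue. These counts are a description and were not tested. Tle1, a co-repressor that binds TCF proteins, read 6.31, 6.54, 6.74 and 7.30 on dorsal and 5.36, 5.56, 5.75 and 5.65 on ventral arrays, a difference of -1.15 (SE 0.20; unadjusted p = 0.000575, adjusted p = 0.193). Tcf7l1, a TCF factor that mostly represses, differed by -0.63 (SE 0.17; adjusted p = 0.354), lower in 4 of 4 numbers.

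On the ventral side the lowest p was that of Cthrc1, a secreted protein that can join Wnt ligands to frizzled and Ror2. It read 6.34, 7.17, 6.93 and 6.34 on dorsal and 7.11, 8.03, 8.16 and 7.25 on ventral arrays, higher in 4 of 4 numbers with overlapping groups, a difference of 0.94 (SE 0.16; limma unadjusted p = 0.00055, adjusted p = 0.192). In the list of 8 tested planar polarity genes, 1 was higher at an unadjusted p under 0.05 and 0 lower, beside 4.08% and 4.18% of all tested genes. This was Daam2, a formin that acts downstream of Dishevelled, at 4.65, 4.84, 4.62 and 4.47 on dorsal and 4.97, 6.21, 5.70 and 5.31 on ventral arrays, with no overlap (difference 0.90, SE 0.22, adjusted p = 0.309 by limma). Prickle1 was the other gene of this list without overlap, making 2 of the 8, both higher in ventral tissue. Of all tested genes 2.01% did so in that direction. Prickle1 read 5.14 to 5.26 on dorsal and 5.28 to 5.57 on ventral arrays (difference 0.27, SE 0.17). Its unadjusted p was 0.164 and its adjusted p 0.760 by limma.

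Of the 4 tested genes for ligand release, Trabd2b, a membrane protease that inactivates Wnt proteins, was higher by 0.71 (SE 0.18; adjusted p = 0.330 by limma) and the glypican Gpc3 lower (difference -0.36, SE 0.10; adjusted p = 0.406), each in 4 of 4 numbers. Trabd2b and Gpc3 each had an unadjusted p under 0.05, 1 in each direction, beside 4.08% of all tested genes higher and 4.18% lower. Wls, the carrier that brings Wnt proteins to the cell surface, differed by 0.24 (SE 0.20). Of 19 tested cytoplasmic genes of the beta-catenin machinery, 1 had an unadjusted p under 0.05 (5.26%, beside 8.26% of all tested genes). It was Apc, a scaffold of the complex that degrades beta-catenin. Its means were 6.20 ± 0.21 (dorsal) and 5.57 ± 0.53 (ventral; SD, n = 4; adjusted p = 0.599 by limma). Among 6 tested target genes, 1 was lower at an unadjusted p under 0.05 (16.7%, beside 4.18% of all tested genes). This was the mesenchymal factor Twist1 (-0.51, SE 0.21, adjusted p = 0.590 by limma, lower in 3 of 4 numbers). Msx1 stood at 6.86 on ventral array 1 and at 5.33 to 5.40 on the other ventral arrays, the same array on which Wnt5a and Lef1 were highest. Ccnd1 differed by 0.23 (SE 0.25).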

How the data were processed

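Expression was measured on 8 Affymetrix arrays, 4 per tissue. Between 200 and 1000 pg of RNA was amplified per sample, per the labels' protocols, which can add spread for weak genes. The authors deposited log2 values, made, per the submitters' processing notes, with Affymetrix Expression Console and RMA (versions not given in the sources used here), which equalises the arrays, so a difference is relative to other genes. Rows carry Entrez numbers, of which 24675 of 25429 had 1 symbol in the platform table and 754 had none; RefSeq (GRCm38.p6) was used to update symbols, and changed 0.

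Genes above the array median on at least 4 of 8 arrays (12416) were fitted with limma 3.58.1 in R 4.3.3 (trend and robust estimation; tested on simulated data), with tissue as effect, the replicate number as a block, a two-sided test and Benjamini-Hochberg adjustment over all of them. The labels call the arrays of a tissue biological rep 1 to 4. With the block, a difference is tested against how it varied over the 4 replicate numbers, which can include technical spread. Both tissues were cut from the same embryos per the labels, hence the block, but whether a number marks 1 embryo is not given. The labels name no batch.

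The members and the gene lists were chosen with earlier results of these data known. Values on every array are given for members at an unadjusted p under 0.05 or without overlap, and for Axin2, Lef1, Wnt5a, Wnt4, Rspo3, Lgr5, Sfrp1, Sfrp2 and Frzb. Others given array by array (Ror2, Lgr4, Fzd3, Fzd7) were chosen after their values were seen. From other pathway lists up to 3 genes with the smallest p are named. Alternatives were other blocks, filters, variance models, array weights, scalings and left-out arrays.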

Additional observations from a re-analysis of the deposited data

Results flagged for a closer look

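Among 74 groups of 4 arrays (37 tested members, each tissue), 4 held an array whose gap to its nearest neighbour took up a larger share of the group's range than Dixon's 95% critical value. Chance gives about 1 in 20 groups, here 3.7. Wnt10a stood at 4.98 on dorsal array 3 (5.19 to 5.21 on the other dorsal arrays). Ryk stood at 7.33 on ventral array 1 (7.64 to 7.66 on the others). Sfrp4 stood at 3.77 on dorsal array 3 (3.02 to 3.12 on the others) and at 3.18 on ventral array 4 (3.95 to 4.08 on the others).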

How the results depend on the processing

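Against 20 other settings, the count of genes called moved from 0 to 4 without the replicate block, 4 with a random block, 10 with the stricter filter, and 0 to 20 with 1 array or number left out. Members called ranged from 0 to 1 in these left-out fits, the 1 being Rspo3 without number 1. Members at an unadjusted p under 0.05 and higher in ventral tissue (3) numbered 1 with the stricter filter, which tests fewer genes, and 0 to 5 in left-out fits. Those lower (4) numbered 2 without the replicate block, 2 with a random block and 1 to 5 in left-out fits. Lef1 reversed to -0.01 with array weights and ranged from -0.26 to 0.44 in left-out fits; Wnt5a ranged from -0.78 to 0.10. The cause was not tested. The other 13 genes given array by array under the rule kept their direction in every setting run (14 to 20 for a gene). All 6 class medians stayed within 1 SD over the replicate numbers in 15 settings. That SD was wide beside the medians, such as 0.20 for the R-spondin and Lgr genes (median 0.07) and 0.50 for the intracellular genes (-0.21). Signs did change. The R-spondin and Lgr median was -0.08 without number 2 and -0.1 over tested members only. The frizzled median went from -0.01 to 0.04 without number 4. Rescaling by quantiles or medians changed no direction among the named genes. The same-numbered arrays deviated together at r = 0.11, 0.03, 0.02 and 0.12, against -0.13 to 0.10 for different numbers, and 5 of 8 arrays correlated best with their own number. With the random block limma estimated a correlation of 0.03 within numbers. The labels do not say that a number marks 1 embryo.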
